A study of Mus musculus with 6 samples.

Results

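The genes described here are 55 histone modifiers and partners of the TET enzymes, followed through RNA-seq libraries of mouse osteoclasts. They were taken by symbol from the deposited count table, which held 23204 genes, and all 55 were found and passed the filter on low counts. The osteoclasts were grown from bone marrow of C57BL/6 mice. Marrow cells spent 2 days in M-CSF, and the adherent precursors were then given RANKL together with M-CSF. Libraries numbered 2, 3 and 5 in the column names carry the genotype label Tet2Rank–/–; Tet3aRank+/–, and the column names read this as *Tet2* knockout with *Tet3* heterozygous. Libraries 1, 4 and 6 are wild type (WT). The labels do not say what drives the deletion beyond the word Rank, the name of the receptor for RANKL, nor do they give the animals' age or say whether animals were pooled. With 3 libraries per genotype and no animal numbers in the labels, the p-values speak of the spread among these 6 libraries.

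TET enzymes oxidise 5-methylcytosine in DNA and thereby start its removal. They do not act alone. OGT, the enzyme that attaches O-linked N-acetylglucosamine to nuclear and cytoplasmic proteins, binds TET2 and TET3, and CXXC5 is a zinc-finger protein that binds CpG DNA and TET2. The other genes encode writers, erasers and remodellers of chromatin. Polycomb complexes methylate H3K27 and ubiquitinate H2A at silent genes, H3K4, H3K36 and H3K79 methylation accompanies active transcription, and acetyltransferases and deacetylases set histone acetylation. In the osteoclast lineage of the mouse, several of these enzymes are known to act on the gene or the protein of NFATc1, the transcription factor that drives osteoclast formation.

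Total counts ran between 9519978 and 14267135 in the mutant-labelled libraries and between 8794973 and 12845879 in the WT libraries. *Tet2* stood at 58.2, 45.5 and 52.3 CPM in mutant-labelled libraries 2, 3 and 5, against 71.7, 80.9 and 79.3 CPM in WT libraries 1, 4 and 6 (CPM, TMM-scaled counts divided by library size in the usual unit). *Tet3* stood at 163, 141 and 156 CPM in the mutant-labelled libraries, against 145, 121 and 127 CPM in the WT libraries. The log2 fold changes were -0.57 ± 0.12 for *Tet2* and 0.23 ± 0.12 for *Tet3* (SE, n = 3 each). In edgeR with genotype only the adjusted p was 0.0924 and 0.360, and DESeq2 gave 0.00933 for *Tet2*. The values were thus lower for *Tet2*, without passing in that edgeR fit, and not lower for *Tet3*. The counts cover whole genes, and which exons were deleted is not given in the sources used here. Libraries 5 and 6, 1 of each genotype, carry a second number in their column names. On the first principal component, with 68.1% of the variance, they stood at 81.2 and 94.6. Library 1 stood at -0.904, and libraries 2, 3 and 4 at -72.1, -33.4 and -69.5, so the libraries without that number were spread as well. The labels do not say what the second number stands for and name no batch, so naming batch here means only this split in the column names. Log2 ratios are therefore also given within each naming batch for the genes nearest to a call. The summed CPM of 13 osteoclast markers was 4056, 9957 and 13991 in the mutant-labelled libraries, against 20371, 16866 and 42627 in the WT libraries, with all 13 log2 fold changes below 0 and *Ctsk*, the collagen-cutting protease of osteoclasts, at 855 CPM or more in every library. The sum of 12 macrophage markers was 9447, 9026 and 9667 CPM in mutant-labelled libraries, against 7323, 5814 and 5917 CPM in WT, with 10 of 12 log2 fold changes above 0. In the mutant-labelled libraries the sums ranged between 1422 and 5230 CPM for dendritic cell markers, 434 and 1346 CPM for neutrophil markers and 714 and 3321 CPM for stromal markers. In the WT libraries they ranged between 709 and 1752, 247 and 884, and 852 and 2372 CPM in the same order. The dendritic cell sum was mostly *Cd74* and *H2-Aa*, at 3130 and 1241 CPM in library 5. *Flt3*, *Zbtb46*, *Xcr1*, *Siglech* and *Ccr7* stood at 6.01 CPM or less in every library. Of the 7 dendritic cell markers tested, 5 had log2 fold changes above 0 and 2 below, *Zbtb46* (-0.77) and *Itgax* (-0.73). All 7 neutrophil markers tested and 7 of the 8 stromal markers lay above 0, with medians of 0.74 and 0.51. In edgeR with genotype only 0 of either list passed, and the naming batch itself was called in 5 of the 7 neutrophil markers. Lymphocyte markers were almost all *Cd4*, and the T cell gene *Cd3e* was at 0 in 5 of the 6 libraries. In bulk libraries fewer cells of a type and less RNA per cell cannot be told apart.

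None of the 55 genes passed the edgeR quasi-likelihood test with genotype as its only term. That fit called 10 of the 14040 genes tested, and 0 of the 13 osteoclast markers rose or fell in it, at a median log2 fold change of -1.47. The lack of calls therefore cannot show that levels were the same. The median size of the log2 fold change, sign dropped, was 0.12 over the 55 genes, against 0.27 over all genes. *Dot1l*, the H3K79 methyltransferase, had the largest difference, with a mean of 109.7 CPM in the mutant-labelled libraries against 219.9 CPM in the WT libraries. *Kat2b*, the acetyltransferase PCAF, was the 1 gene that fell when the naming batch was a term. In DESeq2, *Kdm2b*, an H3K36 demethylase that brings a variant Polycomb complex to CpG islands, rose, and *Kdm5b*, an H3K4 demethylase, fell. *Asxl1* and *Asxl2*, paralogous scaffolds of the same complex, stood on opposite sides of WT.

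The count of 0 of 55 in edgeR at an adjusted p under 0.05 stood beside 0.0712% of the 14040 genes tested, and 10 of the 55 (18.2%) had an unadjusted p under 0.05, against 19.6% of all genes. When the naming batch was added to the fit, 1 of 55 (1.82%) was called, against 8.68% of all genes. DESeq2 called 2 of 55 (3.64%), against 10.3% of the genes it tested. In 12 of the 55 (21.8%) the 3 mutant-labelled values and the 3 WT values did not overlap, against 26.8% of all genes. The mutant-labelled libraries were all higher in 4 (7.27%, against 9.91% of all genes) and all lower in 8 (14.5%, against 16.9%). These counts are small, and shares such as 18.2% against 19.6% lay close to their background. A difference between the 55 genes and all genes in these shares was not tested. The osteoclast marker sum did not overlap between genotypes either, and its part in these differences was not tested. Of the 55 genes, 15 share exon bases with another gene of the table, and their reads may be split or mixed. The naming batch itself was called in 0 of the 55 by edgeR, against 2.29% of all genes.

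**Figure D1:**
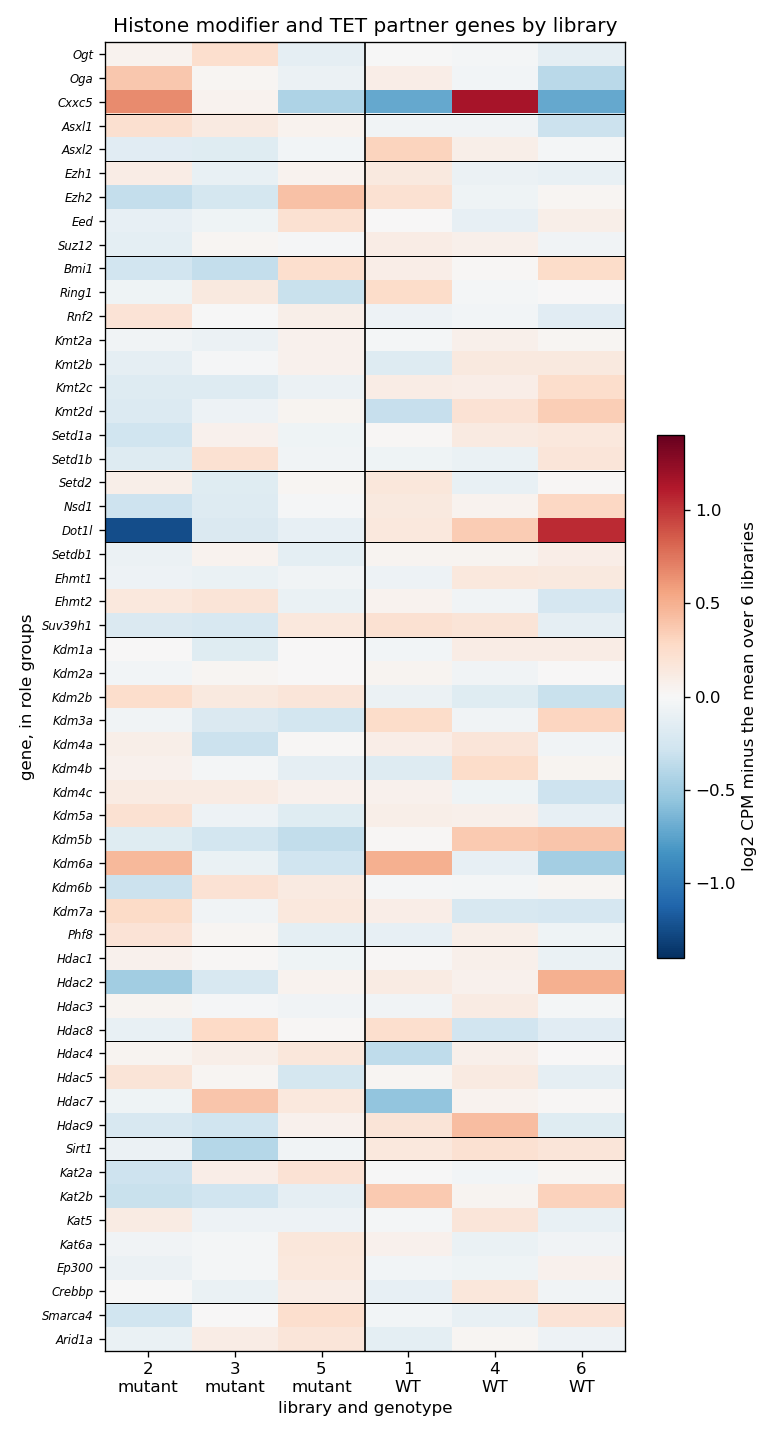
Log2 CPM of each of the 55 genes minus its mean over the 6 libraries, with genes down the page in role groups and libraries across it, mutant-labelled left of WT. Most rows are pale, and *Dot1l*, lowest in library 2 with 62.8 CPM and highest in library 6 with 306 CPM, has the deepest colours beside the low *Cxxc5*.

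The size of the differences could be bounded. The 95% interval of the log2 fold change lay within ±1, that is within 2-fold either way, for 52 of the 55 genes (94.5%), against 53.8% of all genes tested. The exceptions were *Dot1l*, *Cxxc5* and *Hdac9*. The median size of the log2 fold change, sign dropped, was 0.12, against 0.27 over all genes, and the median with sign was -0.02, against -0.03. The 55 genes were also steady between libraries of 1 genotype. Their median coefficient of variation was 9.24% in the mutant-labelled libraries and 9.14% in the WT libraries, against 16.4% and 18.3% over all genes. Their median level was 68.7 CPM, against 23.4 CPM over all genes tested, and the part of that higher level in their smaller spread was not tested. Their summed CPM was 4224, 4314 and 4334 in the mutant-labelled libraries, against 4472, 4449 and 4565 in the WT libraries. Genes with high CPM weigh most in such a sum. The 3 H3K36 and H3K79 methyltransferase genes alone summed to a mean of 406 CPM in the mutant-labelled libraries, against 565 CPM in WT. The sum of *Ogt*, *Oga* and *Cxxc5* went the other way, at 535 CPM in mutant-labelled libraries, against 487 CPM in WT.

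**Figure D2:**
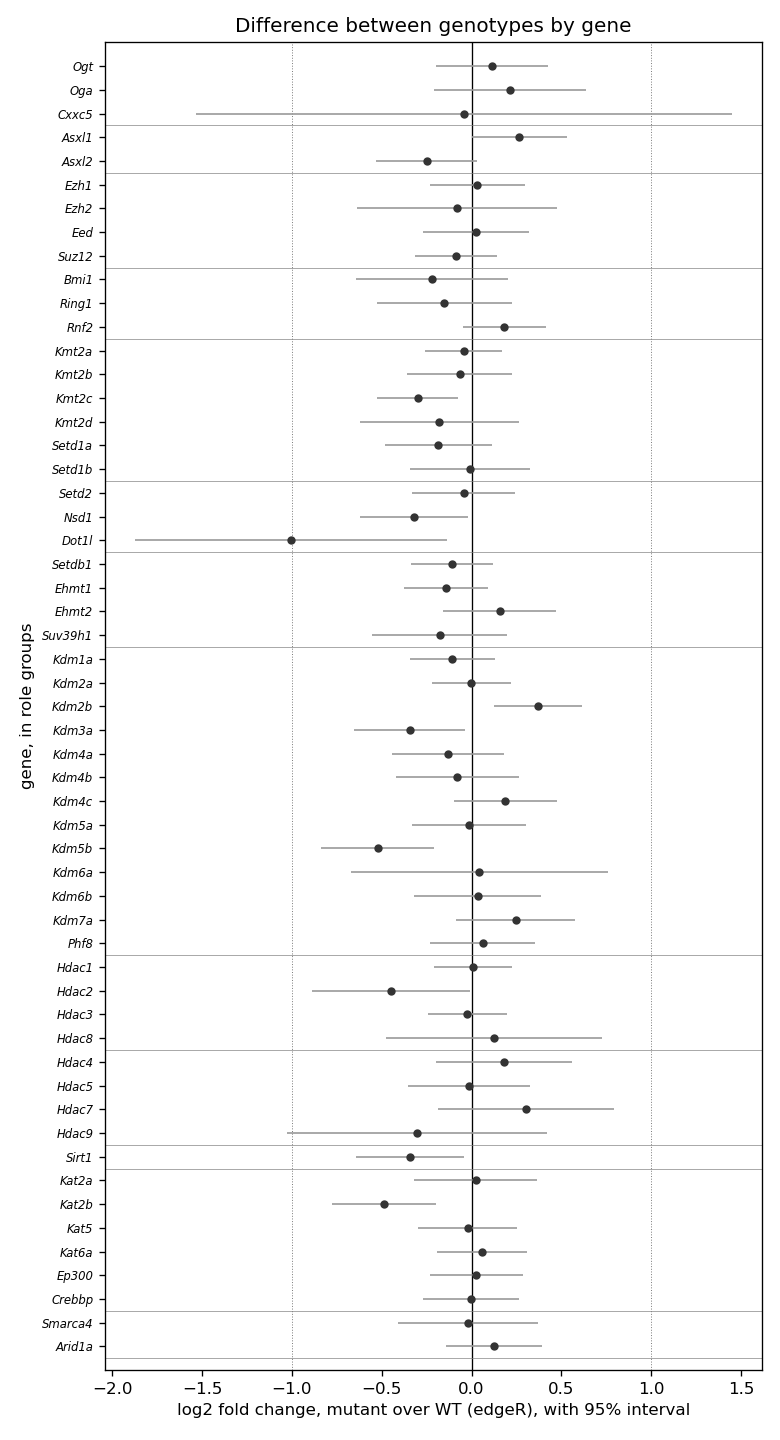
Log2 fold change of each gene, mutant-labelled over WT, from edgeR with genotype only; points are estimates and lines their 95% intervals, in role groups down the page. Estimates run between -1.004 (*Dot1l*) and 0.37 (*Kdm2b*), and 34 of 55 lie below 0, of which 8 turn positive with RLE scaling.

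Neither gene for the enzymes that add and remove O-linked N-acetylglucosamine passed in edgeR. *Ogt* stood at 384, 437 and 342 CPM in mutant-labelled libraries 2, 3 and 5, against 369.9, 366 and 340.2 CPM in WT libraries 1, 4 and 6. *Oga*, which removes the sugar that OGT adds, stood at 169.9, 134 and 123 CPM in mutant-labelled libraries, against 139.9, 128 and 101 CPM in WT. The genotypes overlapped for both, with log2 fold changes of 0.11 ± 0.13 and 0.21 ± 0.18 (SE, n = 3 each), adjusted p = 0.737 and 0.595 in edgeR. The 95% intervals ran from -0.20 to 0.42 for *Ogt* and from -0.21 to 0.64 for *Oga*. *Cxxc5* was near the low end, at 7.28, 4.79 and 3.42 CPM in the mutant-labelled libraries and 2.80, 10.3 and 2.81 CPM in the WT libraries. Its SD was 1.96 CPM in the mutant-labelled libraries and 4.33 CPM in the WT libraries, and its 95% interval, ran from -1.53 to 1.45.

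ASXL1 and ASXL2 are scaffolds that activate BAP1, the enzyme that takes ubiquitin off H2A, and mouse *Asxl2* is known to be needed for normal osteoclast formation. *Asxl1* stood at 86.2, 80.5 and 76.0 CPM in the mutant-labelled libraries, against 71.3, 70.9 and 59.6 CPM in the WT libraries. *Asxl2* stood at 73.4, 72.4 and 79.5 CPM in the mutant-labelled libraries, against 101, 86.6 and 79.9 CPM in the WT libraries. Each mutant-labelled value of *Asxl1* lay above each WT value, and each of *Asxl2* lay below, in *Asxl2* by a margin of under 1 CPM. Neither passed: the log2 fold changes were 0.27 ± 0.11 and -0.25 ± 0.12 (SE, n = 3 each), with edgeR adjusted p = 0.255 and 0.313. Within libraries 1 to 4 the log2 ratios were 0.23 and -0.37, and for library 5 over library 6 they were 0.35 and -0.01.

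Polycomb repressive complex 2 places H3K27 methylation through EZH1 or EZH2, held by EED and SUZ12, and mouse EZH2 is known to support osteoclast formation by silencing inhibitors of it. The 4 core genes had log2 fold changes between -0.09 and 0.03, and 0 passed. *Suz12* stood at 64.8, 72.3 and 70.2 CPM in the mutant-labelled libraries, against 76.6, 75.0 and 68.5 CPM in the WT libraries. *Ezh1* stood at 75.3, 65.1 and 72.8 CPM in mutant-labelled libraries, against 76.9, 66.3 and 65.5 CPM in WT, and *Ezh2* at 14.6, 15.6 and 24.6 CPM in mutant-labelled libraries, against 21.5, 17.7 and 18.8 CPM in WT. The genotypes overlapped in all 3. In Polycomb complex 1, which ubiquitinates H2A, the log2 fold changes of *Bmi1*, *Ring1* and *Rnf2* were -0.22, -0.15 and 0.18. *Rnf2*, the RING1B ligase, stood at 57.1, 49.7 and 53.1 CPM in the mutant-labelled libraries, against 47.6, 48.6 and 44.8 CPM in the WT libraries, without overlap and with adjusted p = 0.372 in edgeR. *Rnf2* shares 158 exon bases with *Trmt1l* on the other strand, and the strand setting of the counting is not given in the sources used here.

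All 6 H3K4 methyltransferase genes had log2 fold changes below 0 in edgeR with TMM scaling, between -0.30 and -0.01 with a median of -0.12, although *Setd1b* stood above 0 with RLE scaling and in DESeq2. Of the 6, 0 passed. *Kmt2c*, which with *Kmt2d* places H3K4 monomethylation at enhancers, stood at 85.1, 85.5 and 91.5 CPM in the mutant-labelled libraries, against 104, 103 and 115 CPM in the WT libraries. Its libraries did not overlap, and its log2 fold change was -0.30 ± 0.09 (SE, n = 3 each; edgeR adjusted p = 0.158). *Kmt2d* stood at 101, 110.2 and 119 CPM in the mutant-labelled libraries, against 92.9, 133 and 148 CPM in the WT libraries, and overlapped. The remaining 4, *Kmt2a*, *Kmt2b*, *Setd1a* and *Setd1b*, overlapped as well. Below 0 lay 34 of the 55 genes, of which 8 turned positive with RLE scaling, and 7473 of the 14040 tested.

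*Dot1l* encodes a writer of H3K79 methylation, and *Nsd1* and *Setd2* encode writers of H3K36 methylation. *Dot1l* stood at 62.8, 129 and 137 CPM in mutant-labelled libraries 2, 3 and 5, against 164, 190.1 and 306 CPM in WT libraries 1, 4 and 6. The genotypes did not overlap, and both sets were wide, with library 2 the lowest and library 6 the highest. Means were 109.7 ± 40.8 CPM in the mutant-labelled libraries and 219.9 ± 75.3 CPM in the WT libraries (SD, n = 3 each), a log2 fold change of -1.004 ± 0.36 (SE) with a 95% interval from -1.88 to -0.13 and an edgeR adjusted p of 0.198. Adding the naming batch gave an adjusted p of 0.0643, and DESeq2 gave 0.0607. The log2 ratio was -0.88 within libraries 1 to 4 and -1.16 for library 5 over library 6. The osteoclast marker sum was likewise lowest in library 2 and highest in library 6, and its part in the *Dot1l* difference was not tested. *Nsd1* stood at 164, 177 and 198 CPM in the mutant-labelled libraries, against 220.5, 207 and 246 CPM in the WT libraries, without overlap (log2 fold change -0.32 ± 0.12, SE, n = 3 each; edgeR adjusted p = 0.225). *Setd2* overlapped, with a log2 fold change of -0.04.

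The DNA just upstream of the genes with the 4 lowest log2 fold changes is printed here, though none of them passed in edgeR with genotype only. TET enzymes act on methylated CpG, and these windows differ in how many CpG they hold. A link between CpG content and the differences in RNA was not tested. The sequences come from RefSeq windows on GRCm38.p6, and read 5′ to 3′ up to the annotated start or the first GENCODE M21 exon base of the gene, with each CG dinucleotide in capitals. They lie at chr10:80754953-80755202 (*Dot1l*), chr17:53566721-53566860 (*Kat2b*, the first of its 2 windows), chr10:36974294-36974543 (*Hdac2*) and chr1:134559928-134560170 (*Kdm5b*), all on the + strand. In the deposited table (mm10) the genes themselves span chr10:80755206-80795461, chr17:53566861-53672720, chr10:36974544-37001889 and chr1:134560171-134635285, in the same order.
Dot1l: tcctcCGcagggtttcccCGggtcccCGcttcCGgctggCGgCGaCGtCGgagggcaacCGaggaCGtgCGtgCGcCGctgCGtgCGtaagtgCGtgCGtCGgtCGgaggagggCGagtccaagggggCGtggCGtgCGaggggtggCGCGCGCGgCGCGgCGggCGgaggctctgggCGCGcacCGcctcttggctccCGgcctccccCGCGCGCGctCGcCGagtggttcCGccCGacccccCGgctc
Kat2b: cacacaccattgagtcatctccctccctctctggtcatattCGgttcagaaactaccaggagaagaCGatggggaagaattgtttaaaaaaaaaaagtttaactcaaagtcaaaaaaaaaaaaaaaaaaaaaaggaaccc
Hdac2: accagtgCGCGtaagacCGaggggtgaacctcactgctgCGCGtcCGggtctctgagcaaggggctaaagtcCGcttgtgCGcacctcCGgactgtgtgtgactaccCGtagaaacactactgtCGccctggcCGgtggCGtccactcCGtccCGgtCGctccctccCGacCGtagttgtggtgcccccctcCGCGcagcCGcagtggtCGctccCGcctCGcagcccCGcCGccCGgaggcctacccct
Kdm5b: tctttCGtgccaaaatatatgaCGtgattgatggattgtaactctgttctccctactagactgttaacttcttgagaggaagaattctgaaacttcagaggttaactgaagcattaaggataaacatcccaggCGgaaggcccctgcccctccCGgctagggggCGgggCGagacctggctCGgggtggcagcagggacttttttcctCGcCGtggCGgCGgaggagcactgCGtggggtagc
The *Kat2b* sequence stops after 140 bases, with 2 CG, and that of *Kdm5b* after 243, with 12, since exons begin there. Counted over all 250 bases before the RefSeq start, printed or not, the windows held 44 CG in *Dot1l*, and 0.539% of all 32851 windows held at least as many. They held 27 in *Hdac2* (8.56% of windows held at least as many), 13 in *Kdm5b* (31.5%) and 6 in *Kat2b* (50.4%). The 4 windows thus ran between 1 of the densest in CG and 1 at the median of 6 over all windows. Of the 55 genes, 44 matched the RefSeq table, and the median over their 60 windows was 20.5 CG. The motif searched was CG, which reads the same on both strands. The libraries measure RNA, and no methylation value was used here.

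**Figure D3:**
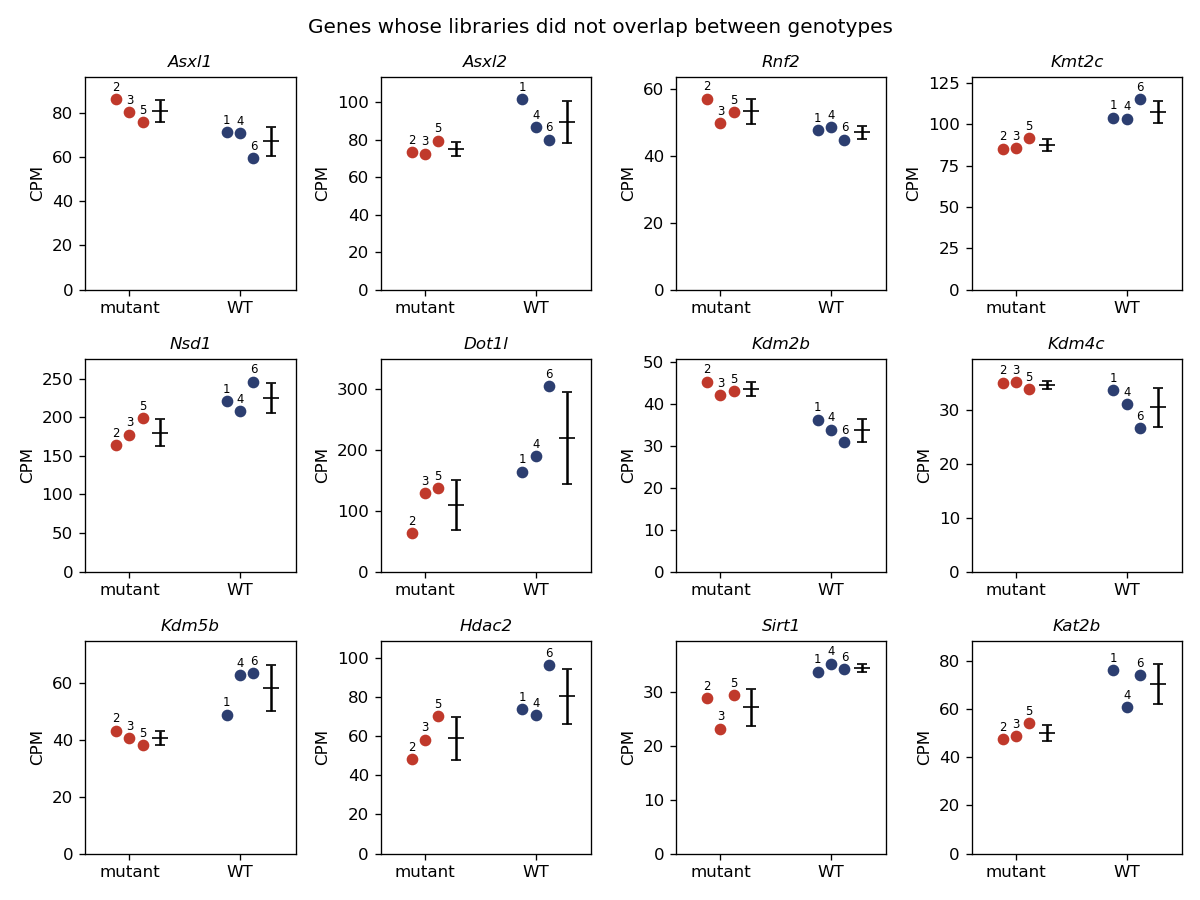
CPM of the 12 genes whose mutant-labelled and WT libraries did not overlap, 1 panel per gene with mutant-labelled left of WT; numbered points are libraries and bars the mean ± SD. *Asxl1*, *Rnf2*, *Kdm2b* and *Kdm4c* lie higher in the mutant-labelled libraries and the other 8 lower.

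H3K9 methylation is a mark of silent chromatin. Of its 4 writers 3 had log2 fold changes below 0, within -0.18 and 0.16, and 0 passed. *Ehmt2*, known as G9a, stood at 189, 194 and 159.5 CPM in the mutant-labelled libraries, against 177, 165 and 145 CPM in the WT libraries. Its partner *Ehmt1* stood at 54.9, 54.4 and 56.0 CPM in mutant-labelled libraries, against 54.9, 64.2 and 63.3 CPM in WT. Both overlapped between genotypes, as did *Setdb1* (log2 fold change -0.11) and *Suv39h1* (-0.18).

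The 13 demethylase genes split into 7 below 0 and 6 above, with *Kdm2a* and *Kdm5a* changing sides under RLE scaling and in DESeq2, and with a median log2 fold change of 0.00. *Kdm5b* stood at 43.2, 40.7 and 38.1 CPM in the mutant-labelled libraries, against 48.9, 62.6 and 63.4 CPM in the WT libraries. *Kdm2b* stood at 45.4, 42.2 and 43.1 CPM in the mutant-labelled libraries, against 36.3, 33.9 and 30.9 CPM in the WT libraries. Neither gene's libraries overlapped. *Kdm5b* had a log2 fold change of -0.52 ± 0.13 (SE, n = 3 each), with adjusted p = 0.113 in edgeR, 0.0643 with the naming batch added and 0.0476 in DESeq2. *Kdm2b* had 0.37 ± 0.10, with adjusted p = 0.133 in edgeR, 0.0799 with the naming batch and 0.0462 in DESeq2. Both kept their direction in each naming batch, at -0.41 and 0.32 within libraries 1 to 4 and at -0.73 and 0.48 for library 5 over library 6. *Kdm2b* shares 627 exon bases, 5.77% of its exons, with *Rnf34* on the other strand. *Kdm2b* and *Kdm4c* (34.7 ± 0.722 CPM in the mutant-labelled libraries and 30.5 ± 3.59 CPM in the WT libraries, SD, n = 3 each) were singled out after their values were seen. In *Kdm4c* the libraries barely separated, with 33.9 CPM in mutant-labelled library 5 against 33.7 CPM in WT library 1. Its log2 fold change was 0.19 ± 0.12 (SE, n = 3 each; edgeR adjusted p = 0.469). *Kdm2a*, an H3K36 demethylase with the highest mean CPM of the 13, stood at 143, 150.4 and 148 CPM in mutant-labelled libraries, against 152, 142 and 148 CPM in WT. *Kdm3a*, an H3K9 demethylase, had an unadjusted p under 0.05 with overlapping libraries (82.2 ± 6.04 CPM in the mutant-labelled libraries and 104 ± 13.6 CPM in the WT libraries, SD, n = 3 each; edgeR adjusted p = 0.211). The remaining *Kdm1a*, *Kdm4a*, *Kdm4b*, *Kdm5a*, *Kdm7a* and *Phf8* overlapped, with log2 fold changes between -0.13 (*Kdm4a*) and 0.25 (*Kdm7a*).

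KDM6A and KDM6B both remove H3K27 methylation, and mouse KDM6B is known to do so at the *Nfatc1* gene in osteoclast precursors. *Kdm6b* stood at 43.1, 61.4 and 58.3 CPM in the mutant-labelled libraries, against 52.5, 52.1 and 54.2 CPM in the WT libraries. *Kdm6a* stood at 80.3, 55.02 and 48.4 CPM in mutant-labelled libraries 2, 3 and 5, against 82.7, 54.1 and 41.9 CPM in WT libraries 1, 4 and 6. The genotypes overlapped for both genes, and *Kdm6a* was high in 1 library of each. *Kdm6a* is X-linked and is known to escape X inactivation in the mouse. *Xist*, the RNA that silences an X chromosome, was highest in the same libraries, at 647 CPM in library 2 and 855 CPM in library 1, and *Uty*, the Y-linked relative of *Kdm6a*, was lowest there, at 4.34 and 0 CPM. In libraries 3 and 4 *Xist* stood at 76.2 and 214 CPM together with *Uty* at 36.9 and 32.8 CPM. The labels give both sexes within each genotype but do not tie a column to a sex, and the part of sex in the *Kdm6a* spread was not tested. Among the other X-linked genes of the 55, *Ogt*, *Phf8*, *Suv39h1* and *Hdac8*, 0 of 4 had the highest value of each genotype in these libraries.

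**Figure D4:**
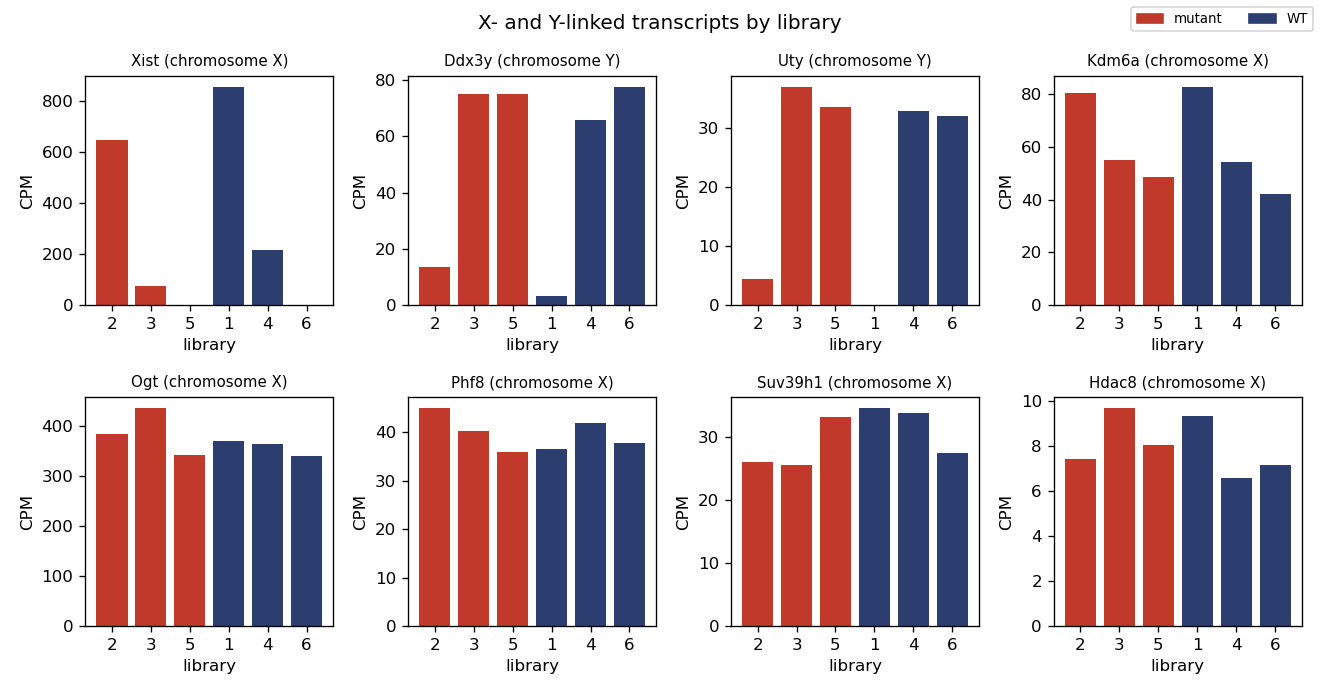
CPM in each library, mutant-labelled (2, 3, 5) left of WT (1, 4, 6), of *Xist*, the Y-linked *Ddx3y* and *Uty*, and the 5 X-linked genes of the 55. *Kdm6a* is highest in libraries 2 (80.3 CPM) and 1 (82.7 CPM), where *Xist* is highest; the other 4 X-linked genes do not share that order.

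Class I deacetylases remove acetyl groups within corepressor complexes. *Hdac2* stood at 48.5, 58.3 and 70.3 CPM in the mutant-labelled libraries, against 73.8, 70.9 and 96.4 CPM in the WT libraries, and its paralog *Hdac1* at 71.7, 69.4 and 65.8 CPM in mutant-labelled libraries, against 69.3, 72.0 and 64.3 CPM in WT. *Hdac2* did not overlap, by a margin of under 1 CPM between libraries 5 and 4, and *Hdac1* did. The log2 fold change of *Hdac2* was -0.45 ± 0.18 (SE, n = 3 each), with edgeR adjusted p = 0.248, and 0.0502 once the naming batch was added. Its log2 ratio was -0.44 within libraries 1 to 4 and -0.46 for library 5 over library 6. *Hdac3* and *Hdac8* had log2 fold changes of -0.02 and 0.13. Class IIa deacetylases bind transcription factors of the MEF2 family, and mouse HDAC7 is known to restrain osteoclast formation. *Hdac7* stood at 25.8, 35.2 and 29.7 CPM in the mutant-labelled libraries, against 18.3, 27.7 and 27.2 CPM in the WT libraries. *Hdac5* stood at 129.7, 117 and 96.5 CPM in mutant-labelled libraries, against 117, 125 and 105 CPM in WT, and *Hdac4* at 19.1, 19.7 and 20.8 CPM in mutant-labelled libraries, against 14.5, 19.4 and 18.6 CPM in WT. All 3 overlapped between genotypes, as did *Hdac9* at 4.60 ± 0.598 CPM in the mutant-labelled libraries and 5.67 ± 1.16 CPM in the WT libraries (SD, n = 3 each), and 0 of the 4 in the class passed. *Sirt1*, an NAD-dependent deacetylase, stood at 28.8, 23.1 and 29.3 CPM in the mutant-labelled libraries, against 33.7, 35.2 and 34.2 CPM in the WT libraries. It did not overlap and did not pass (log2 fold change -0.34 ± 0.13, SE, n = 3 each; edgeR adjusted p = 0.205).

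Of the 6 acetyltransferase genes 3 lay below 0 and 3 above, and *Kat5* and *Crebbp* changed sides under RLE scaling and in DESeq2. *Kat2b* stood at 47.6, 48.7 and 54.1 CPM in mutant-labelled libraries 2, 3 and 5, against 76.2, 60.9 and 74.2 CPM in WT libraries 1, 4 and 6. Each mutant-labelled value lay below each WT value, with means of 50.1 ± 3.48 CPM in the mutant-labelled libraries and 70.4 ± 8.28 CPM in the WT libraries (SD, n = 3 each). PCAF, its product, is known to acetylate NFATc1 in mouse osteoclast precursors. The log2 fold change was -0.49 ± 0.12 (SE), with adjusted p = 0.110 in edgeR, 0.0541 in DESeq2 and 0.0490 once the naming batch was added. It was -0.51 within libraries 1 to 4 and -0.45 for library 5 over library 6. The call made with the naming batch added was lost in every such fit that left out 1 library. The coactivators *Ep300* and *Crebbp* overlapped between genotypes. *Ep300* stood at 158, 165 and 185 CPM in the mutant-labelled libraries, against 163, 161 and 174 CPM in the WT libraries, and *Crebbp* at 53.8, 50.8 and 58.1 CPM in mutant-labelled libraries, against 50.04, 60.3 and 52.5 CPM in WT. *Kat2a*, *Kat5* and *Kat6a* had log2 fold changes of 0.02, -0.02 and 0.06. In the SWI/SNF remodeller, the ATPase gene *Smarca4* stood at 127, 154 and 181 CPM in the mutant-labelled libraries, against 149.9, 143 and 176 CPM in the WT libraries. Its subunit gene *Arid1a* stood at 124, 141 and 148 CPM in mutant-labelled libraries, against 119.6, 134 and 126 CPM in WT, and both overlapped.

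Ratios within a library do not depend on scaling, and 8 pairs that share or oppose a reaction were compared per kb of the longest transcript by two-sided exact permutation tests, in which 3 against 3 libraries cannot give a p below 0.1. *Asxl2* over *Asxl1* was 0.498, 0.526 and 0.612 in the mutant-labelled libraries, against 0.833, 0.715 and 0.784 in the WT libraries. This pair alone did not overlap, with a log2 difference of -0.51 and exact p = 0.1, adjusted p = 0.8 over the 8 pairs. *Ehmt2* over *Ehmt1* averaged 4.86 ± 0.567 in the mutant-labelled libraries and 3.98 ± 0.706 in the WT libraries (SD, n = 3 each; exact p = 0.2). *Hdac1* over *Hdac2* averaged 1.92 ± 0.434 in mutant-labelled libraries and 1.39 ± 0.292 in WT (SD, n = 3 each; exact p = 0.3). *Ezh2* over *Ezh1* averaged 0.388 ± 0.110 in mutant-labelled libraries and 0.420 ± 0.0152 in WT (SD, n = 3 each; exact p = 0.7), so *Ezh1* was the more abundant transcript in both genotypes. The log2 differences of *Ogt* over *Oga*, *Hdac4* over *Hdac5*, *Kdm6b* over *Kdm6a* and *Ep300* over *Crebbp* were -0.11, 0.22, -0.04 and 0.02, with exact p between 0.5 and 1.

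**Figure D5:**
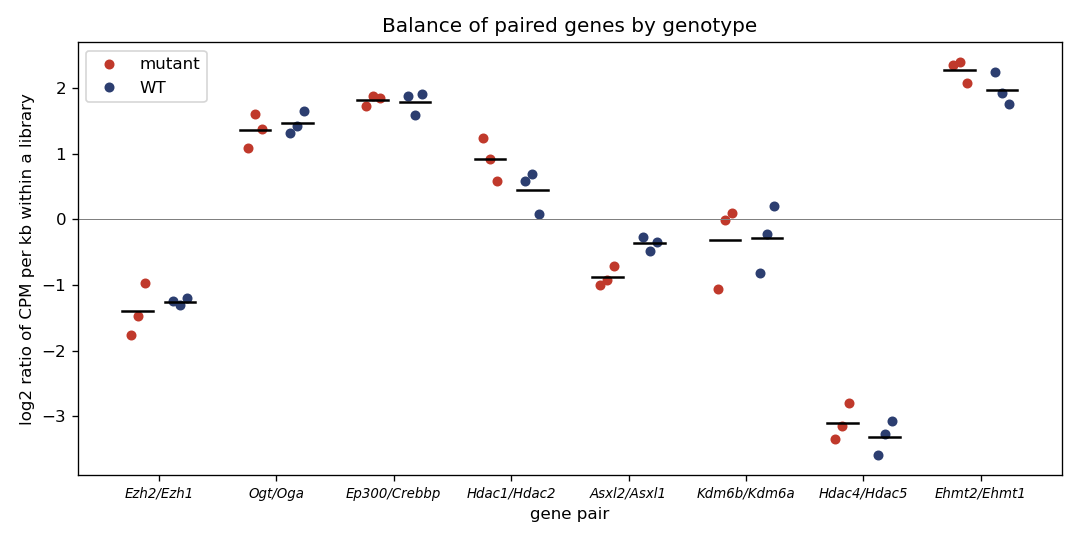
Log2 ratio of CPM per kb within each library for the 8 pairs, mutant-labelled left of WT; points are libraries and lines their means. *Asxl2*/*Asxl1* is the pair whose points do not overlap, with a log2 difference of -0.51 between the means.

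Per kb of the longest transcript, *Ogt* had the highest level in both genotypes, at 72.0 ± 8.86 CPM per kb in the mutant-labelled libraries and 66.6 ± 2.98 CPM per kb in the WT libraries (SD, n = 3 each). *Ehmt2*, at 44.9 CPM per kb in mutant-labelled libraries and 40.3 in WT, and *Hdac1*, at 33.8 in mutant-labelled libraries and 33.6 in WT, held the second and the third place in both. *Dot1l* was 18th in the mutant-labelled libraries with 16.1 CPM per kb, against 4th in the WT libraries with 32.3 CPM per kb. *Hdac2* was 10th in the mutant-labelled libraries with 18.2 CPM per kb, against 5th in the WT libraries with 24.7 CPM per kb. The low end held *Hdac4*, at 2.45 CPM per kb in mutant-labelled libraries and 2.16 in WT, and *Hdac9*, at 0.579 in mutant-labelled libraries and 0.714 in WT. Most neighbours in this order could not be separated: in WT, 5 of 54 neighbouring pairs stood further apart than the sum of their SDs. With the bases of all annotated exons as the length in place of the longest transcript, the WT order had a Spearman correlation of 0.946 with the first, over the 55 genes, which share the libraries. In that order *Hdac1* was 5th in WT and *Dot1l* 3rd.

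Genes that work beside these proteins were taken as 7 lists with 118 genes, of which 116 were tested. In edgeR with genotype only 0 passed, with 20 (17.2%) at an unadjusted p under 0.05, against 19.6% of all genes, and the median log2 fold change was -0.03, as over all genes. Adding the naming batch gave 5 calls (4.31%, against 8.68% of all genes), and DESeq2 gave 9 among the 115 with an adjusted p (7.83%, against 10.3%). Of the 5 calls with the batch term, 4 were among the 26 genes of the Polycomb list and 1 among the 17 of the SWI/SNF list. Of the 9 in DESeq2, 4 were in the Polycomb list, 3 among the 23 deacetylase partners and paralogs (2 rose and 1 fell), 1 among the other methyltransferases and 1 in the SWI/SNF list. Leaving out library 1, 2, 3, 4, 5 or 6 changed this count of 5 to 3, 2, 12, 0, 0 or 0. *Aebp2* and *Jarid2*, accessory subunits of the same form of Polycomb complex 2, fell, to 86.9 ± 14.7 CPM in the mutant-labelled libraries against 158 ± 11.2 CPM in the WT libraries for *Aebp2* and to 89.5 ± 12.1 CPM in mutant-labelled libraries, against 151 ± 12.1 CPM in WT for *Jarid2* (SD, n = 3 each; edgeR with the batch term, adjusted p = 0.0204 and 0.0224). *Pcgf5*, of a variant Polycomb complex 1, fell to 26.4 ± 4.85 CPM in mutant-labelled libraries, against 42.4 ± 8.26 CPM in WT, and *Phc2*, of canonical complex 1, rose to 77.2 ± 7.76 CPM in mutant-labelled libraries, against 50.2 ± 4.46 CPM in WT (SD, n = 3 each; edgeR with the batch term, adjusted p = 0.0325 and 0.0272). *Phf10*, a SWI/SNF subunit, fell to 65.4 ± 9.04 CPM in mutant-labelled libraries, against 118 ± 23.2 CPM in WT (SD, n = 3 each; edgeR with the batch term, adjusted p = 0.0202). In the other 5 lists 0 genes passed with that term. *Nsd2*, an H3K36 methyltransferase, had 97.5 ± 33.5 CPM in the mutant-labelled libraries and 180.4 ± 31.5 CPM in the WT libraries (SD, n = 3 each; edgeR with the batch term, adjusted p = 0.0529). DESeq2 called it. The smallest p of their lists also belonged to *Wdr82* in the COMPASS list (79.4 ± 9.98 CPM in mutant-labelled libraries, against 98.4 ± 7.18 CPM in WT), *Phf2* among demethylases (59.7 ± 2.35 CPM in mutant-labelled libraries, against 51.9 ± 1.17 CPM in WT) and *Hat1* among acetyltransferases (38.0 ± 5.01 CPM in mutant-labelled libraries, against 48.4 ± 7.02 CPM in WT), and none of these passed in any fit (SD, n = 3 each). The core genes *Suz12*, *Eed*, *Ezh1* and *Ezh2*, by comparison, had log2 fold changes between -0.09 and 0.03, and the difference between core and accessory genes was not tested.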

How the data were processed

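RNA-seq was read from 1 end over 75 bases on stranded mRNA libraries, per the labels' protocols. The submitters' processing notes name TopHat2 2.0.13, Bowtie2 2.2.3, SAMtools 0.1.19 and the build mm10; for the counting program and its strand setting, nothing is given in the sources used here. What the authors deposited is a table of raw counts in whole numbers for each gene, without normalization. Of 23264 rows, 60 repeated a gene and were dropped. Columns name the genotype and no replicate, so each was assigned to its genotype only. No 2 libraries agreed within sampling noise: the lowest chi-square over its degrees of freedom was 27.4, and each was counted as its own library.

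Counts were TMM-scaled and tested in edgeR 4.0.16 (R 4.3.3) by the quasi-likelihood test with genotype only, after filterByExpr left 14040 genes, with Benjamini-Hochberg adjustment over all of them and a threshold of 0.05. CPM used the TMM-scaled library sizes. Each standard error is the absolute log2 fold change divided by the root of its F statistic. Biological variation between libraries (common BCV) came to 40.9%, or 23.5% once the naming batch was added. Both fits were first tested on simulated data. Alternatives were RLE scaling, no filter, DESeq2 1.42.0, the naming batch as a term, and leaving out each library; leaving out each library with the batch term was added after seeing the data. Members and lists were chosen with earlier results of these data known. Full values are given for genes called with or without the batch term, the gene with the smallest p and the most abundant gene of each role, and the pairs tested. The gene this rule picks from the list of deacetylase partners is not reported here.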

Additional observations from a re-analysis of the deposited data

How the results depend on the processing

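The call of 0 members held under RLE scaling, without the filter and without each library in turn; DESeq2 called 2 members and the naming batch term 1. Leaving out a library with the batch term (chosen after seeing the data) gave 0 to 2: *Kdm5b* without WT library 1 (adjusted p 0.0483 in edgeR), *Dot1l* and *Hdac2* without mutant-labelled library 3 (0.00792 and 0.0292), none otherwise. Over all genes, 10 were called, against 81 without the filter, 1326 by DESeq2, 1219 with the batch term and 0 to 3 without 1 library. Partner genes called were 0, against 9 by DESeq2 and 5 with the batch term, which became 0 to 12 without 1 library. With the batch term, leaving out library 5 or 6 leaves only libraries 1 to 4 to set the genotype estimate. The cause of these moves was not tested.

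RLE scaling moved the median log2 fold change of all genes to 0.0065, from -0.027. Signs turned for small values only, at most 0.081 on the log2 scale in the fit with genotype only: under RLE scaling *Setd1b* 0.023, *Kdm2a* 0.032, *Kdm5a* 0.020, *Hdac3* 0.0097, *Hdac5* 0.018, *Kat5* 0.011, *Crebbp* 0.032, *Smarca4* 0.012; in DESeq2 *Setd1b* 0.019, *Kdm2a* 0.029, *Kdm5a* 0.018, *Hdac3* 0.0062, *Hdac5* 0.015, *Kat5* 0.0088, *Crebbp* 0.029, *Smarca4* 0.0090; with the batch term *Cxxc5* 0.0039. Leaving out each library, ranges that crossed 0 were, for log2 fold changes, *Cxxc5* -0.35 to 0.91, *Ezh2* -0.36 to 0.092, *Eed* -0.087 to 0.12, *Kmt2a* -0.093 to 0.011, *Kmt2b* -0.16 to 0.016, *Setd1b* -0.13 to 0.11, *Setd2* -0.073 to 0.025, *Kdm2a* -0.019 to 0.050, *Kdm4b* -0.18 to 0.069, *Kdm5a* -0.10 to 0.061, *Kdm6a* -0.17 to 0.35, *Kdm6b* -0.064 to 0.21, *Hdac1* -0.022 to 0.080, *Hdac3* -0.056 to 0.063, *Hdac5* -0.086 to 0.088, *Kat2a* -0.084 to 0.19, *Kat5* -0.067 to 0.092, *Kat6a* -0.014 to 0.13, *Ep300* -0.047 to 0.11, *Crebbp* -0.058 to 0.11, *Smarca4* -0.16 to 0.13, and for log2 ratios, *Ezh2*/*Ezh1* -0.37 to 0.032, *Ogt*/*Oga* -0.23 to 0.030, *Ep300*/*Crebbp* -0.077 to 0.078, *Kdm6b*/*Kdm6a* -0.31 to 0.33. The other 34 members kept their sign. No paired analysis was possible because the columns carry no replicate numbers to pair by; the naming batch, with library 5 beside library 6, was the only block fitted. Depth was least for *Cxxc5*, *Hdac8* and *Hdac9*, the 3 members under 10 CPM; the lowest member count in any library was 24.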
